A study of Mus musculus with 12 samples.

Results

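The genes described here are the 10 that encode the transforming growth factor beta (TGF-beta) ligands Tgfb1, Tgfb2 and Tgfb3, their receptors Tgfbr1, Tgfbr2 and Tgfbr3, and the latent TGF-beta binding proteins Ltbp1, Ltbp2, Ltbp3 and Ltbp4. They were taken by name: every non-control probe whose gene name on the array was a member was used, which gave 22 of 56605 probes and 10 of 37074 gene names. Each of 12 one-colour Agilent arrays read RNA of pancreatic tumour tissue from female C57BL/6 mice, with the age labelled as 8 weeks. Both groups carried orthotopic KP tumours, that is, tumours placed in the pancreas. The 6 vehicle samples came from mice given vehicle for 14 days. The 6 FAKi samples came from mice given FAKi, an inhibitor of focal adhesion kinase, by gavage at 50 mg/kg for 14 days. The labels number the samples of a group without saying that each is a separate animal, and a sample is called a tumour below. The comparison asks which transcripts differ in tumour tissue after the inhibitor. The labels name no host allele, and they do not say how many tumour lines or clones were used.

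TGF-beta is secreted in a latent form. Each ligand stays wrapped in its own propeptide, the latency-associated peptide, and this small complex is tied through a latent binding protein to fibrillin and other matrix. Integrins and proteases release the ligand, which binds Tgfbr2. The type II receptor then recruits and phosphorylates the type I receptor Tgfbr1, which passes the signal to Smad2 and Smad3, while Tgfbr3 (betaglycan) holds ligand for the signalling receptors. In pancreatic cancer the pathway is known for its part in the dense fibroblast stroma and in restraint of T cells. Focal adhesion kinase relays signals from integrins at matrix contacts.

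The probes are designed oligonucleotides of 60 bases, and what each reads depends on where it lies in its transcript. Of the sequences shown here, 2 read overlapping stretches of the coding sequence of the mature growth factors Tgfb1 and Tgfb2, and 3 lie upstream of another probe of the same transcript and turned out to matter for the values below. Capitals mark the bases that are identical between Tgfb1 and Tgfb2 at the aligned position, 28 of 41 aligned bases, and the other sequences are in lower case throughout. Positions are those of the array design on mm9.
Tgfb1 mature probe (A_51_P390715, chr7:26489877-26489936, plus strand): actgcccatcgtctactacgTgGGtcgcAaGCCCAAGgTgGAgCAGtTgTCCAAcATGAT
Tgfb2 mature probe (A_65_P10913, chr1:188449333-188449392, minus strand): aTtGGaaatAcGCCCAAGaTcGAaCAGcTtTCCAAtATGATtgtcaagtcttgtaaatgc
Tgfb1 propeptide probe (A_66_P135688, chr7:26477408-26477467, plus strand): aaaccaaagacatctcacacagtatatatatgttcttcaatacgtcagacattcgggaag
Ltbp3 upstream probe (A_52_P652936, chr19:5751763-5751822, plus strand): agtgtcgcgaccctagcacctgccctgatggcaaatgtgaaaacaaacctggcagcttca
Ltbp4 upstream probe (A_55_P2033500, chr7:28091095-28091154, minus strand): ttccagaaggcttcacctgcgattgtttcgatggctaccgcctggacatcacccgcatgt

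A level below is the log2 processed signal of a probe minus the 75th percentile of its array, and a difference is the FAKi mean minus the vehicle mean on that scale. That percentile ranged from 11.82 to 13.88 across arrays, and the share of spots well above background from 66.6% to 76.1%. Of the 5 slides, 2 carried both groups: vehicle 3, vehicle 5 and FAKi 5 shared slide 1, and vehicle 2, vehicle 6 and FAKi 1 shared slide 4. The other 3 slides carried arrays of 1 group each, FAKi 6 alone on its slide. Markers of tumour epithelium were all measured (6 of 6), as were those of fibroblasts (7 of 7), and each of these 13 probes was well above background on all 12 arrays. No marker of 9 cell types was called, and the differences of the marker scores ran from −1.13 (adipocyte) to 0.49 (acinar pancreas), with 0.05 for fibroblasts and −0.04 for tumour epithelium. In limma 0 of 40460 probes were called at an adjusted p of 0.05 and the lowest adjusted p was 0.288, while 1958 probes (4.84%) fell under 0.05 without adjustment. The transcript of focal adhesion kinase itself, Ptk2, differed by 0.07 and −0.33 on its 2 probes (limma adjusted p = 0.9899 and 0.9683), and the related Ptk2b by 0.29 and −0.42 (limma adjusted p = 0.9714 and 0.9665). A kinase inhibitor need not change these transcripts, so they do not check the labels.

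The arrays of vehicle 5, vehicle 6 and FAKi 6 stood apart in a way that touches several members. For 3994 transcripts of other genes with 2 probes at least 500 bases apart, the signal of the downstream probe minus that of the upstream probe was taken, centred on its mean over the 12 arrays, and the median over transcripts is called the 3′ excess of the array. It was 0.93 on vehicle 5, 0.65 on FAKi 6 and 0.28 on vehicle 6, against −0.49 to −0.09 on the other 9 arrays. The vehicle mean was 0.11 ± 0.44 and the FAKi mean −0.14 ± 0.41 (SD over 6 arrays), a difference that did not pass an exact two-sided permutation test (p = 0.344). Results that rest on these arrays are given with and without them. Within slide 1, FAKi 5 is set against vehicle 3 and vehicle 5, and within slide 4, FAKi 1 against vehicle 2 and vehicle 6. A difference with slide as a block comes from these slides only, and FAKi 6 adds nothing to it. Values within slides or with slide as a block are therefore not separate from the 3′ excess.

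Of the 22 member probes, 19 met the filter, which asks that a probe be well above background on 6 or more arrays, and were tested. Of these, 17 were well above background on all 12 arrays and 2 on 10. All 10 genes had such a probe. None of the 19 was called (background 0.0%), with limma adjusted p between 0.9665 and 0.9985. At an unadjusted p under 0.05 there were 2 of 19, an Ltbp4 probe that was higher and an Ltbp2 probe that was lower in FAKi tumours, where the background over all probes is 4.84% (2.85% higher and 1.99% lower). With slide as a block the count was again 2 of 19 (background 1.85%), both of them Ltbp4 probes of opposite sign, and without the 3 arrays it was 3 of 19 (background 17.6%), of Ltbp1 and Ltbp4. The groups overlapped for every one of the 19 probes, and over all probes with values on 12 arrays 0.231% did not overlap. Members lay below 0 for 12 probes and above 0 for 7, with a median difference of −0.09 against 0.10 over all probes, of which 62.4% lay above 0. The 95% intervals, which are not adjusted, reached from 0.49 to 1.69 log2 units to either side of the difference. They are not the limit for a call after adjustment over all probes with 6 tumours a group. On simulated data 5.4% of probes shifted by 1 log2 unit and 63.6% of those shifted by 2 were called. In bulk tumour RNA, fewer cells of a type and less RNA per cell cannot be told apart.

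**Figure D1:**
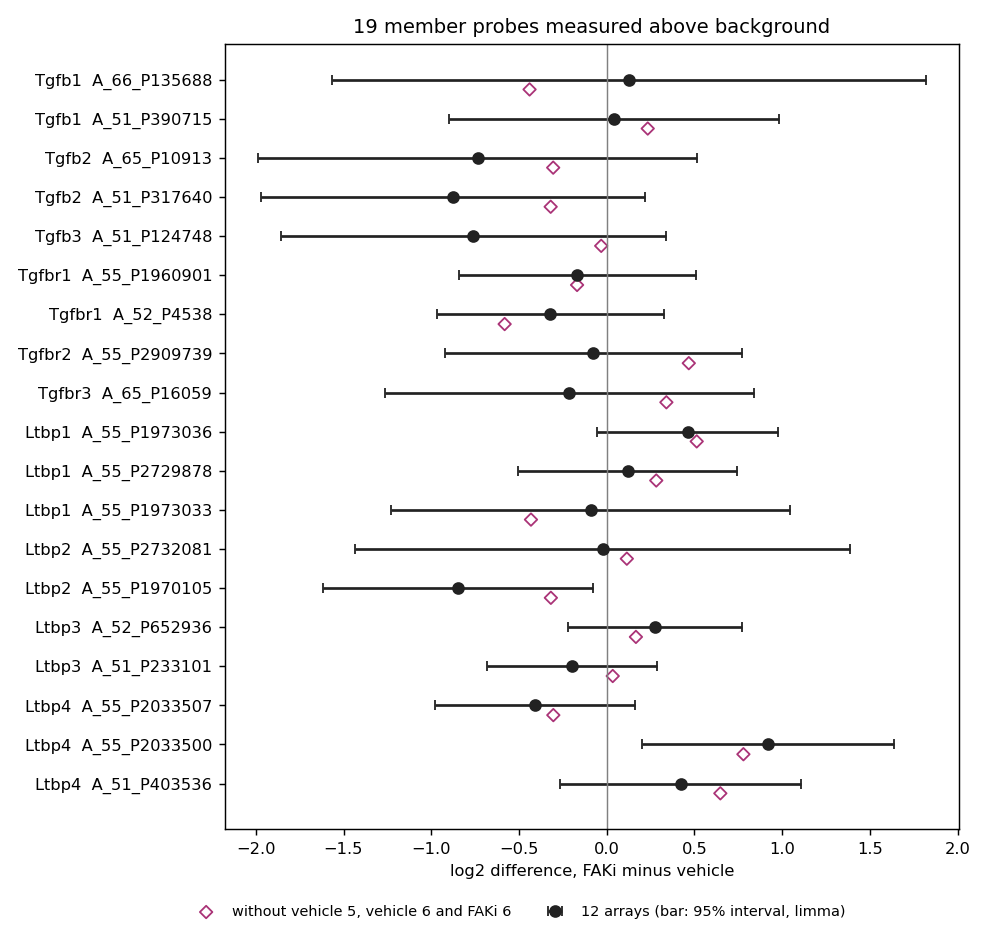
FAKi minus vehicle log2 difference for the 19 member probes measured above background, with 95% intervals from limma over 6 vehicle and 6 FAKi tumours; open diamonds give the difference without vehicle 5, vehicle 6 and FAKi 6. The intervals of 17 probes include 0, and the exceptions are the Ltbp4 probe at 0.92 and the Ltbp2 probe at −0.85, neither of which passed after adjustment over all probes.

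Among the ligands, Tgfb1, the isoform made most widely by immune and stromal cells, had nearly equal means in both groups. Its mature probe ranged from 2.51 to 3.85 in vehicle tumours (median 2.97), and from 1.01 to 3.73 in FAKi tumours (median 3.51). Of the FAKi tumours 5 lay between 3.21 and 3.73, above the vehicle mean, and FAKi 6 lay far below every other tumour at 1.01. The means were 3.07 ± 0.49 and 3.11 ± 1.04 (SD over 6 tumours each), a difference of 0.04 (SE 0.44, limma adjusted p = 0.9962). Its sign turned with quantile normalisation, where it was −0.0047, and without the 3 arrays it was 0.23.

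The propeptide probe of Tgfb1, 721 bases upstream in the same transcript, gave another picture in those arrays. It read −3.35 on vehicle 5, −3.90 on vehicle 6 and −3.91 on FAKi 6, while the remaining 9 tumours lay between −1.47 and 0.11. The group difference was 0.13 (SE 0.79, limma adjusted p = 0.9946), with the widest interval of any member, and became −0.44 without the 3 arrays and 1.28 with slide as a block. Across the 9 other tumours the levels of both Tgfb1 probes did not follow each other (r = −0.07), against r = 0.76 over all 12 (Spearman 0.55, permutation p = 0.0031, 0.0171 adjusted over 11 pairs of probes of a gene). That relation therefore rests on the 3 arrays.

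Tgfb2, the isoform that depends most on betaglycan for receptor binding, varied more between FAKi tumours than between vehicle tumours. The mature probe read −0.16, 0.69, 0.24, −0.70, −0.19 and 0.21 in vehicle 1 to 6 and 0.91, −0.66, 1.07, −1.31, −1.45 and −2.88 in FAKi 1 to 6. FAKi 1 and FAKi 3 were the highest of all 12 tumours and FAKi 4, 5 and 6 the lowest, so the FAKi values surrounded the vehicle values on both sides. The difference of the means was −0.73 (SE 0.58, limma adjusted p = 0.9665), and within slides 1 and 4 it was −1.48 and 0.46, of opposite sign. The difference in spread itself was not tested.

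A second Tgfb2 probe (A_51_P317640, chr1:188447534-188447593, minus strand) lies 1799 bases further downstream, past the end of the coding sequence that the mature probe reads. It ranged from −2.28 to −0.40 in vehicle tumours (median −1.66) and from −3.37 to −0.73 in FAKi tumours (median −2.97), a difference of −0.88 (SE 0.51, limma adjusted p = 0.9665). FAKi 1 and FAKi 3 were again the highest FAKi tumours, at −1.04 and −0.73. Both probes followed each other over the 12 tumours (r = 0.83, Spearman 0.82, permutation p adjusted over 11 pairs 0.0041 for r and 0.0175 for Spearman), more closely still over the 9 without high 3′ excess (r = 0.98), and within the FAKi group (0.93) but less within vehicle (0.27). Without the 3 arrays the differences of the mature and the downstream probe were −0.30 and −0.32, and within slides 1 and 4 that of the downstream probe was −2.16 and 0.25.

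Tgfb3, an isoform made by mesenchymal cells, read 2.97, 3.04, 2.58, 2.08, 5.24 and 3.82 in vehicle 1 to 6 (A_51_P124748, chr12:87397804-87397863, minus strand). In FAKi 1 to 6 it read 3.52, 2.24, 3.57, 1.93, 1.92 and 1.99. The highest tumours were vehicle 5 and vehicle 6, and 4 of the FAKi tumours were under the vehicle mean, with FAKi 1 and FAKi 3 the exceptions as for Tgfb2. FAKi 3 also had the highest skeletal muscle marker score of the 12 tumours (4.24). FAKi 1 had a score of 0.98, under those of vehicle 2 (1.70) and vehicle 6 (1.555). Over 12 tumours this score had r = 0.65 (Spearman 0.63) with Tgfb2 and r = 0.45 (Spearman 0.70) with Tgfb3. None passed adjustment over 90 relations (adjusted permutation p = 0.1525 and 0.2999 for Tgfb2, 0.3844 and 0.2554 for Tgfb3). Within FAKi r was 0.77 and 0.88, within vehicle 0.60 and 0.17, and without the 3 arrays 0.77 and 0.84. Without FAKi 3 and vehicle 2, the tumours farthest out in this score, r was 0.50 for both genes. Other scores had correlations that did not pass either. With the acinar score r was −0.55 for Tgfb2 and −0.70 for Tgfb3 (adjusted permutation p = 0.2575 and 0.1242). Tgfb3 had r = −0.64 with the platelet score and 0.60 with the macrophage score (adjusted permutation p = 0.1525 and 0.2135). The part of such tissues and cells in these levels was not tested beyond these correlations. The Tgfb3 difference of −0.76 (SE 0.51, limma adjusted p = 0.9665) was −0.03 without the 3 arrays, and within slides 1 and 4 it was −1.99 and 0.10.

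Over the 12 tumours the levels of Tgfb2 and Tgfb3 rose together in rank (Spearman 0.75, permutation p = 0.0070, r = 0.59, permutation p = 0.044), but neither passed adjustment over the 45 pairs of members (0.109 and 0.178). Without FAKi 5 and FAKi 6, the tumours farthest out in Tgfb2, r was 0.48. Within the FAKi group r was 0.90 and within vehicle 0.11, and with slide means removed it was 0.56. Over the 9 tumours without high 3′ excess r was 0.95, a value taken after the arrays were seen to stand apart.

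**Figure D2:**
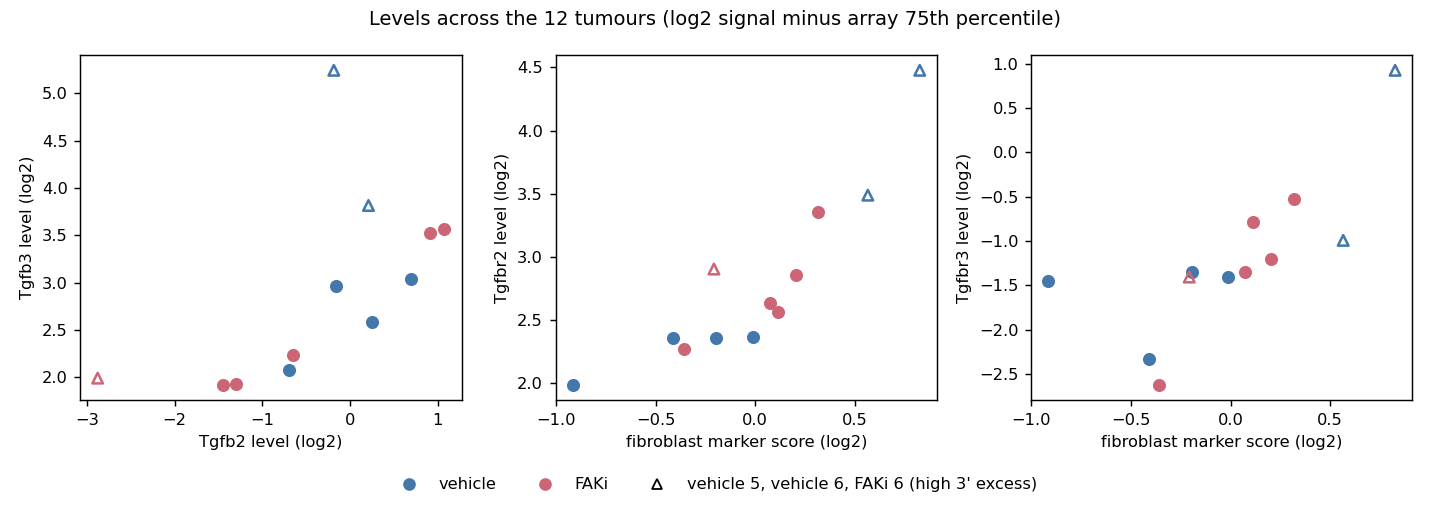
Level of Tgfb3 against Tgfb2 (left), and of Tgfbr2 (middle) and Tgfbr3 (right) against the fibroblast marker score, 1 point per tumour; levels are log2 signal minus the 75th percentile of the array, and the score is the mean log2 deviation of 7 marker genes from their 12-array means. Triangles mark vehicle 5, vehicle 6 and FAKi 6. Tgfb2 and Tgfb3 lie on a rising line apart from these 3 tumours, and Tgfbr2 rises with the score (r = 0.88).

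Among the receptors, Tgfbr2, the ligand-binding type II receptor, had closely similar vehicle levels except in those arrays. It read 1.99, 2.36, 2.37, 2.35, 4.48 and 3.49 in vehicle 1 to 6 and 2.63, 2.56, 3.35, 2.27, 2.86 and 2.90 in FAKi 1 to 6. The highest levels were in vehicle 5, vehicle 6 and FAKi 3. The difference was −0.08 (SE 0.39, limma adjusted p = 0.9939) over 12 tumours and 0.47 without the 3 arrays, a change of sign, with −0.43 when slide was a block.

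Tgfbr2 followed the fibroblast marker score, the mean deviation of Pdgfra, Pdgfrb, Col1a2, Col3a1, Lum, Thy1 and Fap from their 12-array means. Over 12 tumours r was 0.88 and Spearman 0.86, with permutation p of 0.0045 and 0.0252 adjusted over 90 relations of 9 marker scores with the 10 members. Without vehicle 1 and vehicle 5, the tumours farthest out in the score, r was 0.82. It was 0.92 within vehicle, 0.68 within FAKi, 0.87 with slide means removed and 0.85 without the 3 arrays. The macrophage score followed Tgfbr2 as well (r = 0.84, Spearman 0.69, adjusted permutation p = 0.0408 and 0.261), falling to 0.53 without vehicle 1 and vehicle 5. For this score r was 0.94 within vehicle, 0.51 within FAKi, 0.93 with slide means removed and 0.80 without the 3 arrays. The relation is thus not particular to the fibroblast score. The fibroblast score ranged from −0.91 to 0.82 in vehicle and from −0.36 to 0.32 in FAKi tumours, and its part in the level of Tgfbr2 was not tested beyond these correlations.

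Tgfbr3, or betaglycan, read −1.45, −2.34, −1.41, −1.35, 0.92 and −0.99 in vehicle 1 to 6 (A_65_P16059, chr5:107535818-107535877, minus strand). In FAKi 1 to 6 it read −1.35, −0.79, −0.52, −2.62, −1.20 and −1.41. Vehicle 5 alone was above 0, and the ranges of both groups overlapped among the other tumours. The difference was −0.21 (SE 0.49, limma adjusted p = 0.9886), and it was 0.34 without the 3 arrays. By rank Tgfbr3 also followed the fibroblast score (Spearman 0.90, adjusted permutation p = 0.0135; r = 0.75, adjusted p = 0.123; 0.80 without the 2 farthest tumours), within vehicle at r = 0.75, within FAKi at 0.88, with slide means removed at 0.84 and without the 3 arrays at 0.59. With the macrophage score Tgfbr3 had r = 0.76 and Spearman 0.76 (adjusted permutation p = 0.123 and 0.130). There r was 0.86 within vehicle, 0.52 within FAKi, 0.79 with slide means removed and 0.49 without the 3 arrays. The relation of Tgfbr3 with the epithelial marker score was inverse (r = −0.85, adjusted permutation p = 0.0408). It was weaker by rank (Spearman −0.56, adjusted p = 0.397) and without vehicle 2 and vehicle 5 (r = −0.52). It was −0.96 within vehicle, −0.60 within FAKi and −0.89 with slide means removed.

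Tgfbr2 and Tgfbr3 had the highest correlation of the 45 pairs of members (r = 0.83, Spearman 0.78), which did not pass adjustment (permutation p = 0.0621 and 0.109). Without vehicle 5 and vehicle 6 it was 0.60, with slide means removed 0.88, and within vehicle and FAKi 0.88 and 0.75. Both share the 12 arrays and their scaling. So do Tgfbr1 and Ltbp4, which were inverse without passing adjustment (r = −0.72, Spearman −0.75, adjusted permutation p = 0.124 and 0.109). For this pair r was −0.69 within vehicle, −0.68 within FAKi and −0.69 with slide means removed. It was −0.80 without the 3 arrays and −0.52 with quantile normalisation.

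Tgfbr1, the kinase that passes the signal on, was read by 4 probes, and only the one near the end of its transcript (A_52_P4538, chr4:47427421-47427480, plus strand) was well above background on all arrays. It ranged from −0.74 to 1.005 in vehicle tumours (median 0.50) and from −0.44 to 0.71 in FAKi tumours (median 0.06). Vehicle 6 was the lowest tumour and vehicle 1 the highest, and 5 of 6 FAKi tumours lay below the vehicle mean. The difference was −0.32 (SE 0.30, limma adjusted p = 0.9675), −0.58 without the 3 arrays, and 0.28 with slide as a block, which turns the sign.

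The other Tgfbr1 probes belong to short transcript models or to an exon junction and were dim. A_55_P1960901 (chr4:47395833-47395892, plus strand) was well above background on 10 arrays and differed by −0.17 (SE 0.31, limma adjusted p = 0.9861). On A_55_P1960906 (chr4:47374114-47374173, plus strand) no array was well above background, and on A_51_P280137, whose position on chromosome 4 spans 47419898 to 47423556, 3 vehicle and 2 FAKi arrays were. For these last 2 probes no fold is given.

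**Figure D3:**
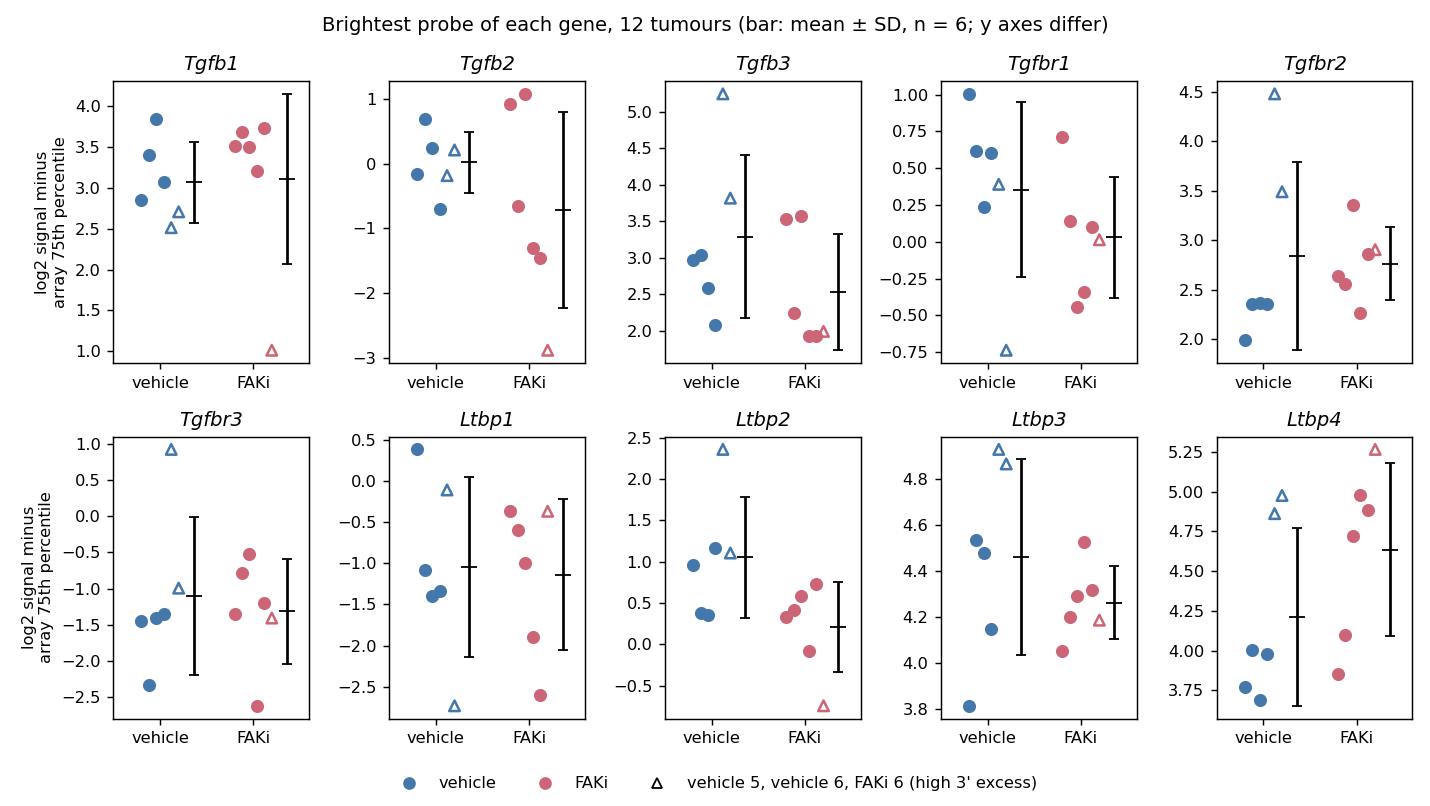
Level of the brightest probe of each of the 10 genes in 6 vehicle and 6 FAKi tumours, in log2 signal minus the 75th percentile of the array, with mean ± SD (n = 6) beside each group; the vertical axes differ, and triangles mark vehicle 5, vehicle 6 and FAKi 6. The groups overlap in every panel, and the triangles hold the lowest FAKi value of Tgfb1 (1.01) and the highest value of Tgfb3 (5.24), Tgfbr2 (4.48) and Ltbp2 (2.36).

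Among the latent binding proteins, Ltbp4 carried the smallest unadjusted p of the members. Its upstream probe, at base 4822 of the transcript, read 3.17, 2.76, 2.60, 3.14, 2.27 and 1.86 in vehicle 1 to 6. It read 2.95, 3.24, 3.87, 4.51, 3.92 and 2.83 in FAKi 1 to 6. FAKi 3, 4 and 5 lay above every vehicle tumour, all 6 FAKi tumours lay above the vehicle mean, and FAKi 1 and FAKi 6 lay within the vehicle range. The difference was 0.92 (SE 0.33, 95% interval 0.20 to 1.64, limma adjusted p = 0.9665). Before adjustment the limma p was 0.0157, and an exact two-sided permutation test gave p = 0.0238.

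The same Ltbp4 value stayed between 0.70 and 1.065 in all 26 fits that gave it a test, each with an unadjusted p under 0.05, and its lowest adjusted p was 0.1341, with array weights. Within slides 1 and 4, which hold vehicle 5 and vehicle 6, it was 1.49 and 0.64. This probe was among the lowest on the arrays of high 3′ excess: vehicle 5 and 6 were the lowest vehicle tumours and FAKi 6 the lowest FAKi tumour. With those 3 arrays left out the difference was 0.78, and with the 3′ excess as a covariate it was 0.70.

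The probe 404 bases downstream in the same transcript (A_51_P403536, chr7:28090175-28090234, minus strand) read 3.77, 4.001, 3.69, 3.98, 4.86 and 4.98 in vehicle 1 to 6. It read 3.86, 4.10, 4.72, 4.98, 4.88 and 5.27 in FAKi 1 to 6. Here the 3 arrays were high rather than low. The difference was 0.42 (SE 0.32, limma adjusted p = 0.9665), 0.65 without the 3 arrays (limma adjusted p = 0.2405) and −0.01 with slide as a block. Over the 9 other tumours both probes followed each other with r = 0.94, against 0.13 over all 12 (Spearman 0.13, permutation p = 0.686), so their agreement depends on those arrays. The level of this downstream probe had r = 0.50 and Spearman 0.76 with the acinar marker score, whose difference was 0.49. Neither passed adjustment over 90 relations (adjusted permutation p = 0.322 and 0.130). For this relation r was −0.07 within vehicle, 0.87 within FAKi, 0.47 with slide means removed and 0.86 without the 3 arrays. The part of acinar tissue in this level was not tested beyond these correlations.

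A further Ltbp4 probe, from a different transcript model (A_55_P2033507, chr7:28096601-28096660, minus strand), went the other way. It ranged from −2.87 to −1.80 in vehicle tumours (median −2.52) and from −3.20 to −2.11 in FAKi tumours (median −2.92), and 5 of 6 FAKi tumours lay below the vehicle mean. The difference was −0.41 (SE 0.26, limma adjusted p = 0.9665), −0.30 without the 3 arrays and −0.93 with slide as a block. Ltbp4 therefore had no single direction across its probes.

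Ltbp2, a fibrillin-associated matrix protein that does not bind latent TGF-beta covalently, gave the other unadjusted p under 0.05. Its probe near the end of the transcript (A_55_P1970105, chr12:86124167-86124226, minus strand) read 0.96, 0.38, 0.36, 1.17, 2.36 and 1.105 in vehicle 1 to 6. It read 0.33, 0.42, 0.58, −0.08, 0.73 and −0.74 in FAKi 1 to 6. All 6 FAKi tumours lay below the vehicle mean, while vehicle 2 and vehicle 3 lay among the FAKi values. The difference was −0.85 (SE 0.36, 95% interval −1.62 to −0.08, limma adjusted p = 0.9665). Before adjustment the limma p was 0.0336, and an exact two-sided permutation test gave p = 0.0303.

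That Ltbp2 difference leaned on the arrays of high 3′ excess, since vehicle 5 was the highest tumour and FAKi 6 the lowest. Without the 3 arrays it fell to −0.32 (SE 0.24, limma adjusted p = 0.5169), without vehicle 5 alone it was −0.59, and with slide as a block −0.52. Of 28 fits, among them the fit to the mean of the gene's probes, 19 gave an unadjusted p under 0.05. Within slides 1 and 4 it was −0.63 and −0.41. The second Ltbp2 probe (A_55_P2732081, chr12:86149029-86149088, minus strand) was dim, well above background on 10 arrays, and differed by −0.02 (SE 0.66, limma adjusted p = 0.9985).

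Ltbp1, the most studied carrier of latent TGF-beta, was read by 4 probes of 4 transcript models. The brightest (A_55_P1973033, chr17:75790530-75790589, plus strand) ranged from −2.73 to 0.38 in vehicle tumours (median −1.21) and from −2.60 to −0.36 in FAKi tumours (median −0.79). Its values were spread widely in both groups, and the difference of −0.09 (SE 0.53, limma adjusted p = 0.9946) was −1.85 within slide 1 and 1.54 within slide 4.

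The probe of an upstream transcript model of Ltbp1 (A_55_P1973036, chr17:75446945-75447004, plus strand) ranged from −4.20 to −3.16 in vehicle tumours (median −4.00) and from −3.72 to −2.997 in FAKi tumours (median −3.45). All 6 FAKi tumours lay above the vehicle mean, and vehicle 4 and vehicle 6 lay among the FAKi values. The difference was 0.46 (SE 0.24, limma adjusted p = 0.9665), between 0.22 and 0.70 under every setting run, and 0.51 without the 3 arrays. A further probe (A_55_P2729878, chr17:75748171-75748230, plus strand) differed by 0.12 (SE 0.29, limma adjusted p = 0.9886). The last probe (A_55_P2721658, chr17:75693642-75693701, plus strand) was well above background only on vehicle 1 and FAKi 2, and no fold is given for it.

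Ltbp3, a carrier of latent TGF-beta in bone and other tissues, had the narrowest intervals. Its downstream probe (A_51_P233101, chr19:5758289-5758346, plus strand) ranged from 3.82 to 4.93 in vehicle tumours (median 4.50) and from 4.05 to 4.53 in FAKi tumours (median 4.25). Vehicle 5 and vehicle 6 were the highest tumours, at 4.93 and 4.87. The difference was −0.20 (SE 0.23, limma adjusted p = 0.9746) and 0.03 without the 3 arrays. The upstream probe, 1851 bases before it, had those same tumours as its lowest, at −0.61 and −0.44, and differed by 0.28 (SE 0.23, limma adjusted p = 0.9665), or 0.17 without the 3 arrays.

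The pairs of probes on one transcript thus separated on the same arrays. The gap between downstream and upstream probe, centred on its mean over 12 tumours, was on vehicle 5, vehicle 6 and FAKi 6 in turn 1.38, 2.12 and 0.44 for Tgfb1, 1.399, 0.21 and 1.12 for Tgfb2, 1.18, 0.95 and 0.11 for Ltbp3, and 1.27, 1.79 and 1.105 for Ltbp4. On the other 9 arrays it lay between −1.30 and 0.73 for Tgfb1, −0.59 and 0.03 for Tgfb2, −0.54 and 0.08 for Ltbp3, and −0.86 and −0.09 for Ltbp4. These 3 arrays were the highest 3 of 12 for Tgfb2, Ltbp3 and Ltbp4, while for Tgfb1 FAKi 5 lay above FAKi 6. The FAKi minus vehicle difference of the gap was −0.08, −0.14, −0.475 and −0.50 for Tgfb1, Tgfb2, Ltbp3 and Ltbp4. None of the 4 passed an exact two-sided permutation test (p = 0.894, 0.641, 0.156 and 0.271). Within the other 9 arrays its correlation with the 3′ excess was −0.15, −0.20, 0.20 and 0.46, so no relation over 12 arrays is given. RNA quality was not measured in the files, and its part in these gaps was not tested.

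**Figure D4:**
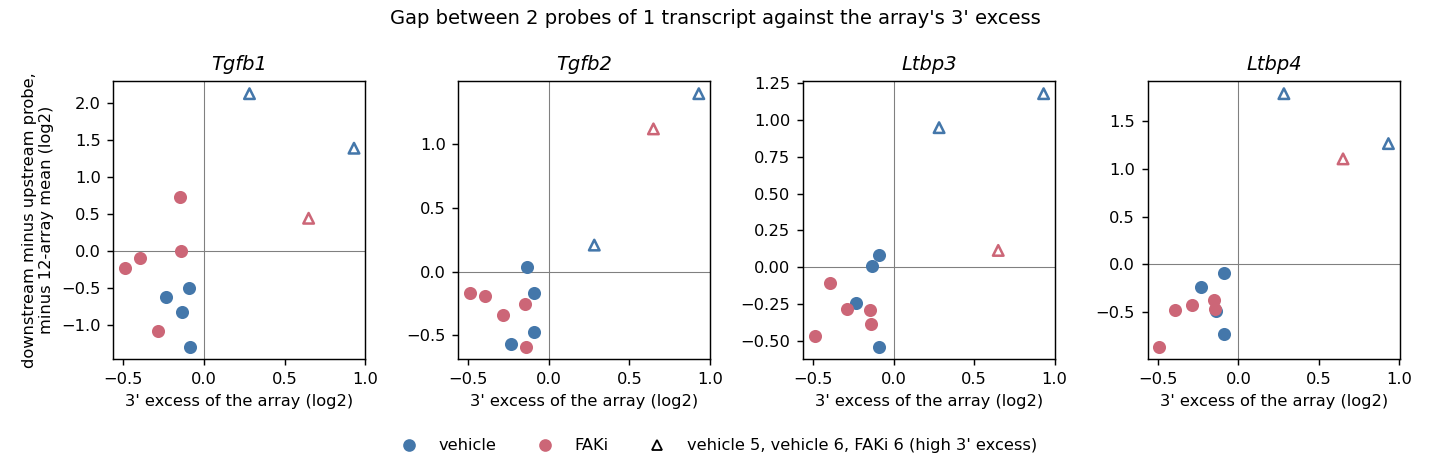
Downstream minus upstream probe of the same transcript, centred on its 12-array mean (vertical, log2), against the 3′ excess of the array over 3994 other transcripts (horizontal, log2), 1 point per array for Tgfb1, Tgfb2, Ltbp3 and Ltbp4. Triangles mark vehicle 5 (excess 0.93), FAKi 6 (0.65) and vehicle 6 (0.28), which lie to the right and above 0 in all panels.

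The other genes of the pathway were taken from 5 lists, with 51 measured genes read by their brightest probe. None was called, and 4.79% of 27376 genes had an unadjusted p under 0.05 and 60.5% lay above 0, with a median of 0.08.

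Of genes that activate latent TGF-beta or anchor it in matrix, 12 of 13 were measured, 6 above and 6 below 0, with a median of −0.06, and 1 had an unadjusted p under 0.05. That gene was Thbs1, thrombospondin 1, an activator of latent TGF-beta (−0.92, SE 0.41, limma adjusted p = 0.9994). Itgb6, the epithelial integrin subunit that activates it, was dim, well above background on 6 arrays, at −1.60 (SE 0.93). On the higher side the genes of smallest p were the membrane protease Mmp14 (0.53, SE 0.56) and the gelatinase Mmp9 (0.39, SE 0.47). Mmp14 was at 1.09 with slide as a block and 0.46 without the 3 arrays, but near 0 (−0.0011) with the 3′ excess as a covariate. Mmp9 was at 0.25 without the 3 arrays and 0.37 with the covariate, and turned to −0.37 with slide as a block. Without the 3 arrays the median was 0.20.

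Extracellular binders of TGF-beta numbered 6, with 2 above and 4 below 0, a median of −0.35 and 0 at an unadjusted p under 0.05. The proteoglycans Bgn (0.82, SE 0.83) and Aspn (0.45, SE 0.38) were the genes above 0, and the protease Htra1 (−0.98, SE 0.63) and the GPI-anchored Cd109 (−0.83, SE 0.56) led those below. Bgn was at 2.13 with slide as a block and −0.05 with the 3′ excess as a covariate. Without the 3 arrays the list's median turned to 0.13. Co-receptors and receptor regulators split 5 and 5 with a median of −0.01 and 0 at an unadjusted p under 0.05. Their genes of smallest p were Strap (0.37, SE 0.20), which binds the receptors, Zfyve9 (0.16, SE 0.24), which brings Smad2 to them, the decoy receptor Bambi (−0.41, SE 0.30) and Tgfbrap1 (−0.31, SE 0.38). Tgfbrap1 turned to 0.12 without the 3 arrays and 0.02 with the covariate, and the list's median was 0.27 without the 3 arrays and −0.28 with slide as a block.

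SMADs and their co-repressors also split 5 and 5, with a median of 0.0010 and 1 at an unadjusted p under 0.05, the co-repressor Tgif2 (0.97, SE 0.39, limma adjusted p = 0.9994). The common SMAD, Smad4, was at 0.15 (SE 0.25) and at −0.14 with slide as a block, the co-repressor Skil at −0.43 (SE 0.22) and the ubiquitin ligase Trim33 at −0.49 (SE 0.33). All 6 FAKi tumours had Skil below the vehicle mean. The list's median was −0.26 with slide as a block and −0.13 without the 3 arrays.

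Of 13 transcripts that TGF-beta is known to induce, 11 lay below 0 and 2 above, with a median of −0.11, and 1 had an unadjusted p under 0.05. That gene was Ldlrad4, a feedback inhibitor of the receptors, at −0.73 (SE 0.31, limma adjusted p = 0.9994), with 5 of the FAKi tumours under the vehicle mean, −0.81 with slide as a block and −0.73 without the 3 arrays. The matricellular gene Ccn2 followed at −0.44 (SE 0.32), and the other 9 below 0 lay between −0.25 and −0.05. Bhlhe40 (0.15, SE 0.22) and Postn (0.02, SE 0.30) were the 2 above 0, and Postn turned to −0.05 with slide as a block and −0.04 with quantile normalisation. The list's median turned to 0.20 without the 3 arrays, so its direction below 0 is not independent of them.

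**Figure D5:**
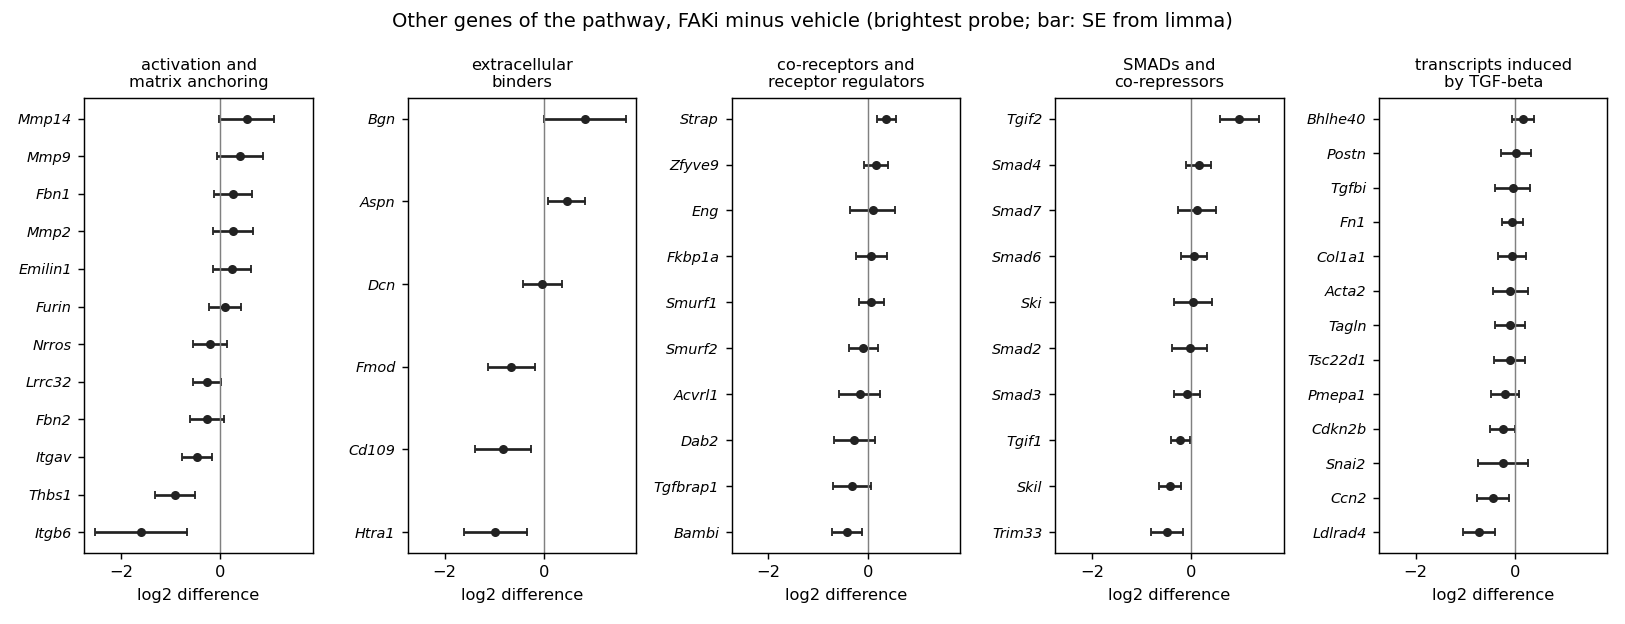
FAKi minus vehicle log2 difference of 51 other pathway genes in 5 lists, by their brightest probe, with bars of 1 SE from limma over 6 vehicle and 6 FAKi tumours. Ldlrad4 (−0.73), Thbs1 (−0.92) and Tgif2 (0.97) have an unadjusted p under 0.05, and no gene passed after adjustment.

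Genes whose levels over the 12 tumours were most like a member's were taken by Pearson's r over 16484 named genes, as a description with no test. They were Plod3 and Dbnl for Tgfb1 (0.96 and 0.94), Iglon5 and Acot10 for Tgfb2 (0.96 and 0.94), and Wls and Irs1 for Tgfb3 (0.97 and 0.96). For the receptors they were Adar and Parp12 for Tgfbr1 (0.94 and 0.92), Ehd2 and Col16a1 for Tgfbr2 (0.97 and 0.96), and Plek and Ube2f for Tgfbr3 (0.94 and 0.93). For the binders they were Tmem168 and Tulp4 for Ltbp1 (0.95 and 0.94), Lmo1 and Arid3a for Ltbp2 (0.92 and 0.88), Napa and Tsen34 for Ltbp3 (both 0.93), and Mrpl39 and Tra2b for Ltbp4 (0.97 and 0.95). Without the 3 arrays the values of 18 of these 20 genes were between 0.87 and 0.98, and those of Lmo1 and Arid3a were 0.50 and 0.59.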

How the data were processed

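Total RNA of 12 tumours was labelled with Cy5, per the labels, and the authors' intensity values come from Agilent Feature Extraction 11.5.1.1, per the file headers, which name the mouse build mm9 on 11 arrays. A deposited table of log2 values of 38569 probes matched the arrays (r of at least 0.9965 across probes) and served as an alternative; limma is listed, with no version, per the submitters' processing notes, but the table's normalisation is not stated. The columns' medians lay between 10.71 and 10.90. Its scale is log2 and uncentred, and the filter behind it is unknown.

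Here, spots of a probe were averaged as log2 processed signal less the 75th percentile of the array, after outlier spots (71 to 156 per array) and control spots were left out; 0 spots were saturated. Probes well above background on at least 6 of 12 arrays (40460) were fitted with limma 3.58.1 (lmFit and eBayes, R 4.3.3) with no covariate and Benjamini-Hochberg adjustment at 0.05. Relations used 100000 resamples (scipy 1.17.1), single values all 924 arrangements (smallest p 0.0022). On simulated data for FAKi against vehicle, over 40323 probes, 5.4% of probes shifted by 1 log2 unit, 63.6% at 2 and 86.8% at 3 were recovered. The number of arrays limits precision.

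Members and lists were chosen with earlier results of these data known. Of the genes in the lists, 1 is not reported here. Named genes were all member probes, Ptk2, Ptk2b, per list the 2 of smallest p in each direction, and 2 genes most like each member. The 3′ excess, and leaving out or adjusting for it, were added after the values were seen. The labels number the replicates without saying that they are separate animals, so p-values measure the spread between these samples. Alternatives covered normalisation, background, filters, 1 value per gene, array weights, a variance trend, slide and replicate blocks, and each array left out. They reuse the same arrays, so a count of fits with the same outcome is not separate support.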

Additional observations from a re-analysis of the deposited data

Results flagged for a closer look

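In the mature probe of Tgfb1 (A_51_P390715) FAKi 6 read 1.01, far below the other FAKi tumours, of which the nearest read 3.21, a gap of 0.81 of the range of the 6 tumours. FAKi 6 is an array with a high 3′ excess and lies alone on its slide. In the dim Tgfbr1 probe A_55_P1960901 vehicle 4 read −4.22 and stood above the other vehicle tumours, of which the nearest read −5.60, a gap of 0.72 of the range. Both groups of each of the 19 tested probes were looked at. Chance flags about 1 in 20 groups, so flags such as these can arise by chance alone.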

How the results depend on the processing

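The number of probes called was 0 over all 12 arrays and under every alternative except the authors' deposited table (1), array weights (6) and leaving out 1 array in turn (0 to 4, with 4 without FAKi 1), and 0 member probes were called under any of them. Probes at an unadjusted p under 0.05 numbered 1958, against 7653 with array weights, 748 with slide as a block, 5405 without vehicle 6, 2962 without FAKi 6, 1297 without FAKi 2, 1107 without FAKi 4 and 7131 without vehicle 5, vehicle 6 and FAKi 6. The labels do not say whether the replicate numbers pair the tumours, and the main fit did not treat them as pairs. Same-numbered tumours correlated at −0.06 to 0.51 in their deviations from the group means, which cannot settle it. With a replicate block 0 probes were called and 2555 had an unadjusted p under 0.05. Member probes at an unadjusted p under 0.05 numbered 1 to 4.

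No member difference passed adjustment in any of the 27 other settings that gave a test, and 11 of the 19 probes changed sign in at least 1 of them. With the untested values within slides 1 and 4 counted, 14 changed sign, the further ones being both Tgfb2 probes and Tgfb3 (0.46, 0.25 and 0.10 within slide 4). For the Tgfb1 propeptide probe the value was −0.32 with array weights, −0.44 without the 3 arrays, −0.64 with the 3′ excess as a covariate and −0.36 to 0.64 leaving out 1 array. For the Tgfb1 mature probe it was −0.0047 with quantile normalisation, −0.0031 in the deposited table, −0.32 with the covariate and −0.082 to 0.46 leaving out 1 array. For Tgfbr1, A_55_P1960901 gave 0.13 and A_52_P4538 0.28 with slide as a block, and the former −0.29 to 0.10 leaving out 1 array. Tgfbr2 gave 0.30 with array weights, 0.47 without the 3 arrays, 0.22 with the covariate and −0.25 to 0.25 leaving out 1 array, and Tgfbr3 0.26, 0.34, 0.11 and −0.46 to 0.19. For Ltbp1, A_55_P2729878 gave −0.13 with slide as a block and −0.049 to 0.26 leaving out 1 array. For Ltbp1 the mean of the gene's probes gave 0.16, and the brightest probe gave 0.064 with the covariate and −0.43 to 0.20 leaving out 1 array. The dim Ltbp2 probe gave 0.12 without the 3 arrays, 0.35 with the covariate and −0.41 to 0.42 leaving out 1 array. For Ltbp3 the mean of the gene's probes gave 0.039, and the downstream probe gave 0.035 without the 3 arrays. The downstream Ltbp4 probe gave −0.012 with slide as a block. The cause of these changes was not tested.

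Without the 3 arrays the medians of all 5 pathway lists changed sign, to 0.20 for activation, 0.13 for extracellular binders, 0.27 for co-receptors, −0.13 for SMADs and 0.20 for induced transcripts. With slide as a block the lists, in the same order, were at −0.17, −0.42, −0.28, −0.26 and −0.29. The median over all genes is not given for these fits, so a shift of all genes cannot be told apart from a change of the lists. Of 20 named pathway genes, 6 changed sign under quantile normalisation, slide as a block, without the 3 arrays or with the covariate. No difference is given for probes under the filter, and values of dim probes that met it lie near background. The 6 tumours a group limit what could be detected.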
